A study of Rattus norvegicus with 58 samples.

Results

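Aminoacyl-tRNA synthetases are the enzymes that join each amino acid to its transfer RNA, the step that fixes the meaning of the genetic code before a ribosome reads it. The rat genes described here were taken by symbol: every probe set named by a single gene of the form Aars1, Cars1 or Yars2, together with Farsa and Farsb, which encode the subunits of the cytosolic phenylalanine enzyme. That gave 46 probe sets for 31 genes, among 14217 genes that the array names by a single symbol. Of these, 18 encode enzymes of the cytosol or enzymes shared by cytosol and mitochondrion, and 13, whose symbols end in 2, encode enzymes of the mitochondrion. After a filter on dim probe sets, all 31 genes were tested in the liver and 30 in the kidney. Nars2, which encodes the mitochondrial asparagine enzyme, was too dim in the kidney.

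The animals were male Harlan Sprague-Dawley rats gavaged for 5 days with 4-methylcyclohexanemethanol (MCHM), an alicyclic alcohol used to wash coal. The doses were 0.1, 1, 10, 100, 300 and 500 mg/kg. Control rats belonged to the 0 mg/kg group, and the vehicle and the age of the animals are not given in the sources used here. Liver and kidney were each hybridised to 29 Affymetrix Rat Genome 230 2.0 arrays, with 5 arrays for the control and 4 for each dose, 58 arrays in all. Every dose of an organ was compared with the same 5 control arrays, so the doses are not independent of one another. Values are log2 signals per probe set. A difference of 1 is a doubling of the signal, and signals of different probe sets cannot be ranked against each other.

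Cells keep these enzymes in separate pools. The cytosolic enzymes charge transfer RNA for most cellular proteins, and several of them (those for isoleucine, leucine, methionine, glutamine, lysine and arginine among the genes measured here) sit together in the multisynthetase complex. The mitochondrial enzymes charge transfer RNA for the few respiratory chain subunits that mitochondria make themselves. When amino acids run short or the endoplasmic reticulum is stressed, kinases phosphorylate the initiation factor eIF2, and the transcription factor ATF4 is then made in larger amounts. ATF4 binds DNA together with C/EBP proteins, and genes for amino acid synthesis, amino acid transport and many cytosolic synthetases are among its known targets.

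Promoters were searched for the letters TGATGCAA, a form of the site bound by ATF4 with a C/EBP partner, on both strands. Each window ran from 250 bases before to 50 bases after the annotated start, from RefSeq on the GRCr8 assembly. Windows were found for 16 of the 18 cytosolic and 13 of the 13 mitochondrial genes. The motif was present in 7 of the 16 cytosolic windows (43.8%), in 0 of the 13 mitochondrial windows and in 266 of all 33469 windows of that length (0.795%). The looser form TGATGNAA was found in the same numbers of synthetase windows, 7 and 0, and in 3.98% of all windows. Of the 7 sites 6 are shown, chosen after the liver values were seen. Their genes include Yars1, which rose with dose in the liver. They also include Iars1, Mars1 and Nars1, whose liver trends did not pass adjustment over all genes. Sars1, which rose with Yars1, has no such motif in its window. A part of the motif in these values was not tested. Each site is written 5′ to 3′ on the strand that carries the motif, with the motif in capitals. For Yars1 and Cars1 the motif lies after the start, and for the other 4 shown before it.
Yars1: acgagctcagcTGATGCAAcctg
Iars1: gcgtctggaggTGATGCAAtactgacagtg
Mars1: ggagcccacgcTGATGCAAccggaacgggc
Nars1: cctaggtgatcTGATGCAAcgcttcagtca
Tars1: agctaaccagcTGATGCAAcgggacgccag
Cars1: tttccagaatcTGATGCAAccgcggcgccg

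The Yars1 site lies at chr5:146820190-146820212, with the first motif base at position 39 after the start, on the coding strand. The sites of Iars1 (chr17:15193658-15193687), Mars1 (chr7:65023752-65023781), Nars1 (chr18:60275778-60275807) and Tars1 (chr2:62114811-62114840) lie just before the start, with the first motif base along the gene at positions -24, -17, -14 and -27. That base is at 18 for Cars1 (chr1:208225334-208225363). All positions are counted from the start used for the window. The annotated gene spans of Iars1 and Mars1 begin farther upstream, at 15193716 and 65023880, so both of their sites lie inside the spans. The 250 bases before the Iars1 start (chr17:15193653-15193902, minus strand) and before the Mars1 start (chr7:65023754-65024003, minus strand) show the site in its setting. They are written along the gene's own strand, where the motif reads as its reverse complement, in capitals.
Iars1 promoter: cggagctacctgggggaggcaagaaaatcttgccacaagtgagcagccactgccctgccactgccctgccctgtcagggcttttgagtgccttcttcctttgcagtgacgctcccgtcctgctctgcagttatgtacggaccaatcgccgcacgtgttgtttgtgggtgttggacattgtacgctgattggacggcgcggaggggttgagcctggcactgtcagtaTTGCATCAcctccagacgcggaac
Mars1 promoter: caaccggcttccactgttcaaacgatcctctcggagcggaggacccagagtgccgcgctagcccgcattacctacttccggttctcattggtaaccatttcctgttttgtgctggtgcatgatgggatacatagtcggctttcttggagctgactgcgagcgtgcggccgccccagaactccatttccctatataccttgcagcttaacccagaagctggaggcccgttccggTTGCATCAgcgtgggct

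The organ labels were borne out by marker genes. Albumin lay between 14.6 and 14.7 in every liver, and uromodulin, made by the thick ascending limb, between 12.4 and 13.8 in every kidney. In the kidney, 3 arrays stood apart. Adipose transcripts averaged 9.80 in replicate 3 at 300 mg/kg and 8.87 in replicate 3 at 500 mg/kg, against at most 5.93 elsewhere, and liver transcripts averaged 7.47 in control replicate 2, against at most 5.91 elsewhere. These are whole-organ samples, so fewer cells of a type and less RNA per cell cannot be told apart.

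In the liver 2 cytosolic synthetases rose with dose, by small amounts. Yars1 and Sars1, which encode the cytosolic tyrosine and serine enzymes, rose along the order of the 7 doses. Their slopes were 0.075 (SE 0.019, adjusted p = 0.0311) and 0.053 (SE 0.013, adjusted p = 0.0326) log2 units per step of dose, with n = 29 arrays, in limma with Benjamini-Hochberg adjustment. They were 2 of 31 synthetases called, both higher, where 208 of 11275 genes were called in all (1.84%), 76 of them higher (0.674%). Unadjusted p values under 0.05 were found for 8 members, against 16.6% of all genes. Of the 31 slopes 28 were above 0, against 51.2% of all genes, and the median slope was 0.028 for the cytosolic members, 0.015 for the mitochondrial and 0.0006 for all genes tested. Members share arrays, so signs counted over them, here and below, are not independent of one another.

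Yars1 gave 9.17, 9.61, 9.62, 9.43 and 9.56 in the 5 control livers. It gave 10.04, 9.76, 9.82 and 10.01 at 300 mg/kg and 10.09, 9.50, 9.98 and 10.16 at 500 mg/kg. All 4 livers at 300 mg/kg lay above every control, and at 500 mg/kg 3 of 4 did, while replicate 2 lay among the controls. The difference from control was 0.43 (SE 0.15) at 300 mg/kg, which is 1.35-fold, and 0.45 (SE 0.15) at 500 mg/kg, which is 1.37-fold. Neither passed the adjustment over all genes in limma (adjusted p = 0.472 and 0.132). Single livers were also high at lower doses, at 9.86 in replicate 4 of 0.1 mg/kg and at 10.18 in replicate 3 of 10 mg/kg, the highest Yars1 signal of all 29.

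Sars1 gave 8.69, 8.90, 8.81, 8.67 and 8.90 in the control livers, 9.10, 9.12, 9.02 and 9.17 at 300 mg/kg and 9.26, 8.88, 9.15 and 9.27 at 500 mg/kg. The pattern was that of Yars1, with every liver at 300 mg/kg above the controls and replicate 2 at 500 mg/kg inside them. The differences were 0.31 (SE 0.10, adjusted p = 0.462) and 0.35 (SE 0.10, adjusted p = 0.103). Without replicate 2 at 500 mg/kg, both genes passed the test at that dose, with Sars1 higher by 0.43 (adjusted p = 0.0487) and Yars1 by 0.60 (adjusted p = 0.0487). The trend calls also turned on single arrays. Leaving out control replicate 1, or any of replicates 1, 3 and 4 at 500 mg/kg, left 0 synthetases called, and slopes over all single omissions ran from 0.067 to 0.088 for Yars1 and from 0.049 to 0.060 for Sars1. Over the dosed livers alone, a setting chosen with the data in view, the slopes were 0.077 (adjusted p = 0.0929) and 0.047 (adjusted p = 0.156).

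**Figure D1:**
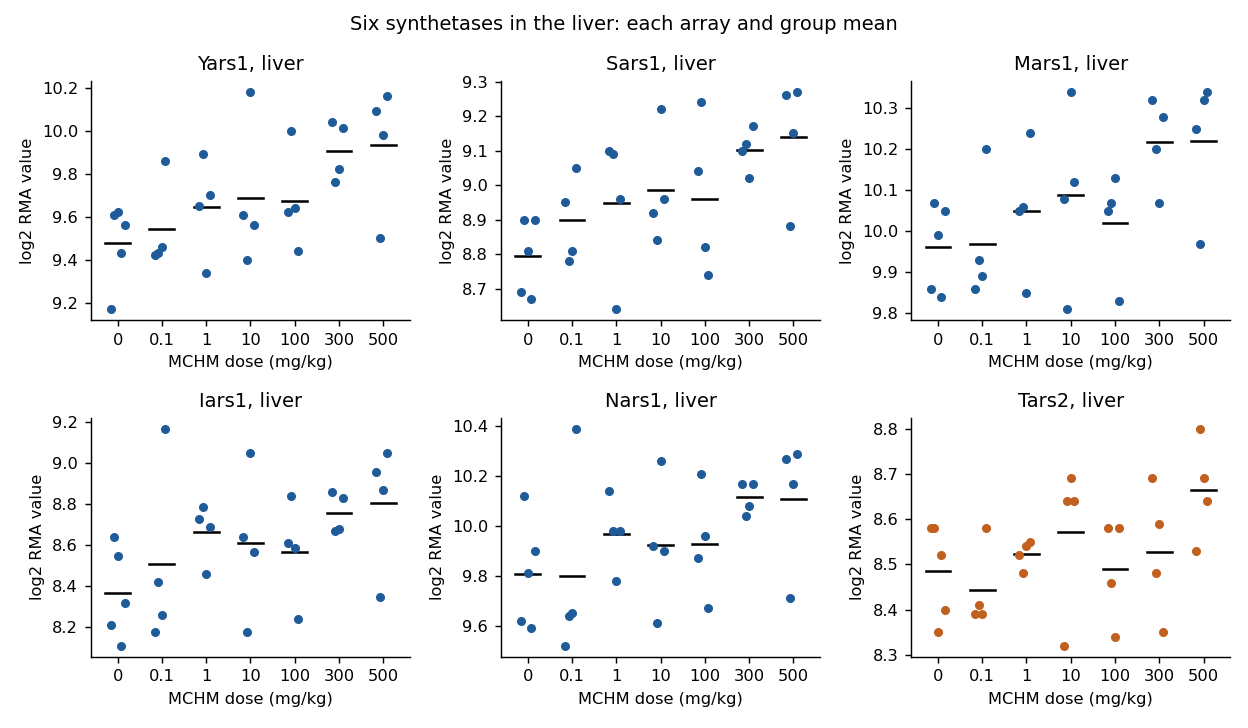
Log2 signal of 6 synthetases in each liver array (points) by MCHM dose in mg/kg, with the group mean as a bar; each panel has its own vertical scale, with the mitochondrial Tars2 in orange. At 300 mg/kg Yars1, Sars1 and Iars1 lie above all 5 controls, while 1 liver at 500 mg/kg lies low for all 5 cytosolic members.

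Mars1, Iars1 and Nars1, which encode the cytosolic methionine, isoleucine and asparagine enzymes, came next in the trend. Their slopes were 0.043 (adjusted p = 0.0701), 0.063 (adjusted p = 0.134) and 0.053 (adjusted p = 0.142). Iars1 gave 8.21, 8.64, 8.55, 8.11 and 8.32 in control livers, 8.86, 8.67, 8.68 and 8.83 at 300 mg/kg, and 8.96, 8.35, 8.87 and 9.05 at 500 mg/kg. It was the other member, beside Yars1 and Sars1, whose livers at 300 mg/kg did not overlap the controls. These 3 of 31 members stand beside 157 of 11275 genes higher without overlap at that dose (1.39%). No member was free of overlap at 500 mg/kg, where 2.7% of all genes were higher and 2.89% lower without overlap. The plot of single arrays shows that liver at 8.35 for Iars1, 9.71 for Nars1 and 9.97 for Mars1, with the other 3 livers of the dose at 8.87, 10.17 and 10.25 or above.

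At the top dose 0 of 31 liver members were called in limma, against 108 of 11275 genes (0.958%), and 5 members had an unadjusted p under 0.05, against 13.9% of all genes. Of the cytosolic members 14 of 18 lay above 0, with a median difference of 0.16 and a range from -0.062 for Kars1 to 0.45 for Yars1. The median over all genes was 0.0060, with 51.8% above 0. Mars1 differed by 0.26 (adjusted p = 0.21), Iars1 by 0.44 (adjusted p = 0.231) and Nars1 by 0.30 (adjusted p = 0.374). At 300 mg/kg 0 members were called, against 3 of all genes (0.0266%), and 6 members had an unadjusted p under 0.05, against 7.89% of all genes. There all 18 cytosolic members lay above 0, with a median of 0.18 and a range from 0.0030 for Kars1 to 0.43 for Yars1, against 47.2% of all genes and a median of -0.0074. Cytosolic members moved together between livers of a group (median r = 0.62), so 18 signs are not 18 independent readings of the dose.

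At the 4 lower doses 0 members and 0 genes overall were called in the liver (0.0%), and 1, 2, 1 and 1 members had an unadjusted p under 0.05 at 0.1, 1, 10 and 100 mg/kg, against 4.1%, 5.83%, 6.39% and 3.68% of all genes. The median cytosolic difference was 0.024 at 0.1 mg/kg, 0.088 at 1 mg/kg, 0.11 at 10 mg/kg and 0.063 at 100 mg/kg. Cars1, the cysteine enzyme, was 0.38 above control at 1 mg/kg (adjusted p = 0.806), with no overlap between the groups, as were 1.37% of all genes. Nars2 was the only member to lie below control without overlap in the liver at any of the 6 doses, at -0.51 for 0.1 mg/kg (adjusted p = 1.00), as did 0.905% of all genes. Its signals were dim, at 4.36 to 4.86 in control livers and 3.85 to 4.29 at that dose. The median signal of every liver array was 5.26 or more.

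The cytosolic members were also grouped by where the enzyme sits, by its fold and by promoter, with no test between the groups. The median difference at 500 mg/kg was 0.13 for the 6 genes of the multisynthetase complex and 0.16 for the 12 outside it. It was 0.19 for the 9 enzymes of class I and 0.15 for the 9 of class II, the unrelated catalytic folds into which synthetases divide. The 7 genes whose promoter window holds TGATGCAA had a median of 0.26, with all 7 above 0, and the 9 whose window lacks it had a median of 0.054, with 5 above 0. At 300 mg/kg the medians were 0.31 and 0.10, and in the trend 0.043 and 0.011. The groups also differed at the lower doses, where no gene was called. Their medians were 0.066 and -0.0070 at 0.1 mg/kg, and 0.17 and 0.046 at 1 mg/kg. At 10 mg/kg they were 0.21 and 0.093, and at 100 mg/kg 0.14 and 0.0015. Sars1, which was called in the trend, has no such motif in its window, and Tars1, which has one, differed by 0.030 at 500 mg/kg. In the kidney at 500 mg/kg the same groups had medians of 0.033 and 0.082.

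No mitochondrial member was called in the liver. At the top dose 10 of 13 lay above 0, with a median of 0.087 and a range from -0.019 for Aars2 to 0.23 for Rars2. Tars2, the mitochondrial threonine enzyme, gave 8.58, 8.58, 8.35, 8.52 and 8.40 in controls and 8.53, 8.80, 8.69 and 8.64 at 500 mg/kg. All but replicate 1 lay above every control, and the difference was 0.18 (SE 0.080, adjusted p = 0.309). Rars2, the arginine enzyme, differed by 0.23 (adjusted p = 0.39) and Iars2, the isoleucine enzyme, by 0.11 (adjusted p = 0.587). In the trend Tars2 had a slope of 0.023 (adjusted p = 0.262), Sars2 one of 0.027 (adjusted p = 0.356) and Rars2 one of 0.027 (adjusted p = 0.384). The second Tars2 probe set had a slope of the opposite sign, -0.014. Yars2, the mitochondrial tyrosine enzyme, differed by -0.0016 at 300 mg/kg (adjusted p = 0.998) and by 0.055 at 500 mg/kg (adjusted p = 0.875).

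Where a gene has several probe sets, most went the same way in the liver at 500 mg/kg. The second Iars1 probe set differed by 0.45 beside 0.44, the other Cars1 sets by 0.17 and 0.23 beside 0.21, the second Mars1 set by 0.19 beside 0.26 and the second Gars1 set by 0.090 beside 0.15. The sets had opposite signs for Hars2, at -0.12 beside 0.10, and, close to 0, for Vars1, at 0.024 beside -0.033, and Wars2, at 0.032 beside -0.0016. They shared a sign but differed in size for Tars2, at 0.021 beside 0.18, and Lars1, at 0.018 beside 0.19. The second Wars1 set was the larger, at 0.20 beside 0.054. Iars1 also split at 300 mg/kg, where its second set stood at -0.018 beside 0.40. So did Tars2, at -0.10 beside 0.041, and Wars1, at -0.094 beside 0.040. Hars2, Lars1, Vars1 and Wars2 had sets of opposite sign at that dose too. Yars1 and Sars1 each rest on 1 probe set, as does Yars2. Hars1 and Hars2, the cytosolic and mitochondrial histidine enzymes, are divergent neighbours on chromosome 18. The starts used for their promoter windows lie 144 bases apart, and their liver differences at 500 mg/kg were 0.15 and 0.10.

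The mean over the 18 cytosolic members shows how the livers compare as wholes. Relative to the control mean it was -0.13, 0.17, 0.025, -0.12 and 0.046 in the controls, 0.28, 0.14, 0.15 and 0.17 at 300 mg/kg, and 0.23, -0.10, 0.24 and 0.27 at 500 mg/kg. Control replicate 2 thus reached the level of the dosed livers, and replicate 2 at 500 mg/kg that of the lower controls. The highest means of all stood at low doses, 0.34 in replicate 4 at 0.1 mg/kg and 0.36 in replicate 3 at 10 mg/kg. In the kidney the same mean stayed between -0.09 and 0.10 on all 29 arrays. For the 13 mitochondrial members the liver means ran from -0.14 to 0.13, and replicate 2 at 500 mg/kg, low for the cytosolic members, held the highest of them.

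**Figure D2:**
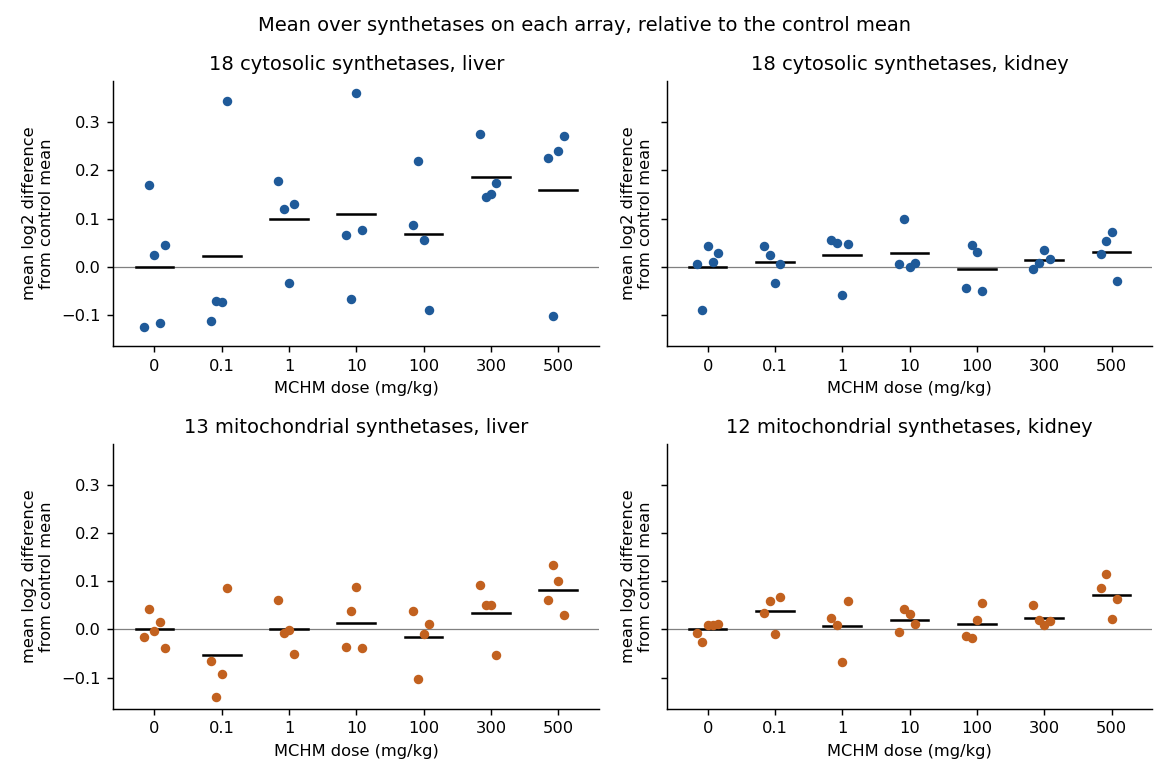
Mean log2 difference from the control mean over the cytosolic (top) and mitochondrial (bottom) synthetases on each array (points) of liver and kidney, by MCHM dose in mg/kg, with group means as bars. In the liver the cytosolic means reach 0.34 and 0.36 in single animals at 0.1 and 10 mg/kg and fall to -0.10 in 1 animal at 500 mg/kg, while those of the kidney stay between -0.09 and 0.10.

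The cytosolic members moved together from liver to liver within a dose group. After each group's mean was taken away, the median correlation over the 153 pairs of cytosolic members was r = 0.62 (Spearman's rho 0.59) across the 29 livers, and 98.7% of pairs were above 0. Over all pairs of tested genes the median was 0.010. The pairs share arrays and are not independent, and no test was made. Without the 2 livers farthest from the median, replicate 4 at 0.1 mg/kg and replicate 3 at 10 mg/kg, the median was 0.51. Nars1 (median r = 0.80 with the 17 others), Iars1 (0.79), Farsb (0.77) and Yars1 (0.74) were the most closely tied, and Qars1, the glutamine enzyme, the least (0.17). In the kidney the cytosolic median was 0.16, beside 0.034 for all genes, and the spread was smaller. The median SD within groups was 0.095 in the kidney and 0.18 in the liver, against 0.14 and 0.15 for all genes.

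The mitochondrial members gave lower correlations. Their own median pairwise r was 0.10, and with the cytosolic members 0.038. Without the same 2 livers these were 0.074 and -0.057, so that the second changed sign. Yars2 (0.60), Hars2 (0.53) and Rars2 (0.49) nonetheless followed the cytosolic members in the liver. Cars2, the mitochondrial cysteine enzyme, ran against them, at -0.67. Its control livers gave 8.17, 7.92, 8.20, 8.12 and 7.96, and its highest liver, at 8.43, was the replicate 2 at 500 mg/kg in which the cytosolic members were low. In the kidney Yars2 had -0.017 and Cars2 0.074. Among the other lists, elongation and initiation factors of the cytosol had a median r of 0.44 with the cytosolic synthetases in the liver, the ATF4 list 0.22, and the macrophage and lymphocyte list 0.020.

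**Figure D3:**
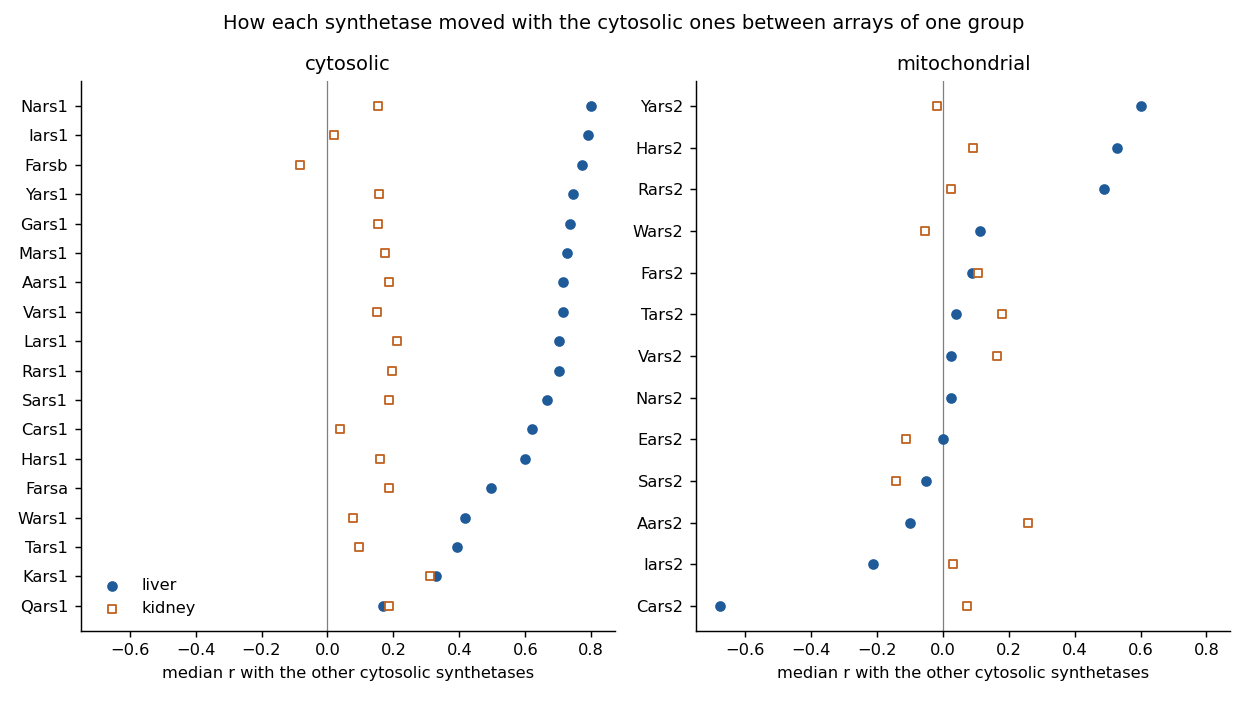
Median correlation (Pearson's r) of each synthetase with the other cytosolic synthetases, over the 29 arrays of liver (filled circles) or kidney (open squares) after removal of group means. The liver values of the cytosolic genes run from 0.17 for Qars1 to 0.80 for Nars1, and those of the mitochondrial genes from -0.67 for Cars2 to 0.60 for Yars2.

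In the kidney a single synthetase rose. Yars2, which encodes the mitochondrial tyrosine enzyme, gave 7.53, 7.76, 7.71, 7.65 and 7.63 in the control kidneys and 8.00, 8.02, 8.00 and 8.00 at 500 mg/kg. All 4 dosed kidneys lay above every control and above every other kidney of the series, of which the highest was 7.90, at 1 mg/kg. The 4 values lay within 0.02 of each other, with an SD of 0.010, against 0.086 in the controls. The mean rose from 7.65 to 8.01, by 0.35 (SE 0.065, adjusted p = 0.0465 in limma), which is 1.28-fold. It was 1 of 30 synthetases called, among 3 of 11204 genes in all (0.0268%), all of them higher, and the only member among 229 genes higher without overlap (2.04%). At 300 mg/kg Yars2 gave 7.74, 7.71, 7.75 and 7.73, a difference of 0.080 (adjusted p = 0.908). Its slope over the doses was 0.036 (adjusted p = 0.201). No kidney synthetase was called in the trend, against 17 of 11204 genes (0.152%), and 4 had an unadjusted p under 0.05, against 9.76% of all genes.

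**Figure D4:**
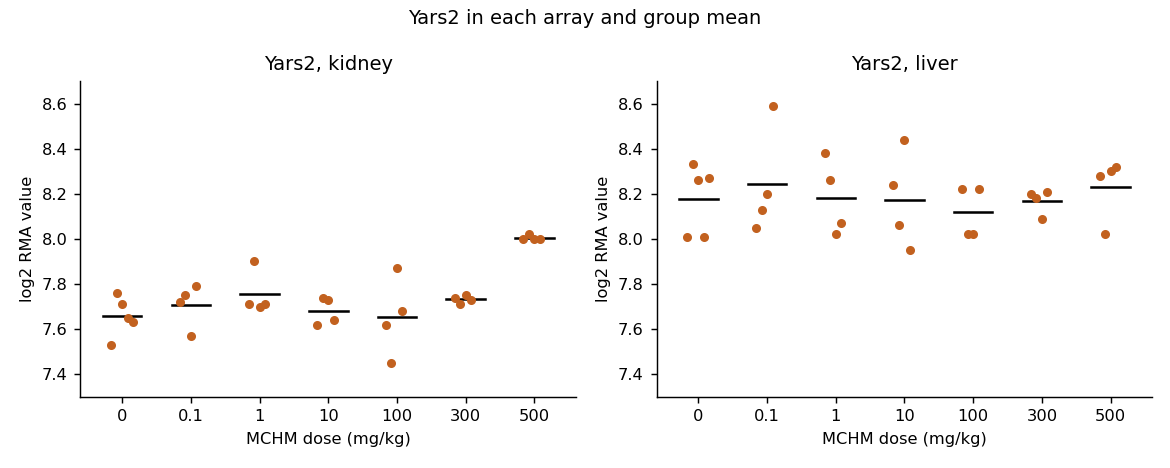
Log2 signal of Yars2 in each array (points) of kidney (left) and liver (right) by MCHM dose in mg/kg, with group means as bars. The 4 kidneys at 500 mg/kg lie at 8.00 to 8.02, above all other kidneys, while the livers at that dose, at 8.02 to 8.32, overlap their controls.

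The size of the Yars2 difference hardly moved with the processing, but its adjusted p lies close to the threshold. It was between 0.33 and 0.35 under the 11 other settings and was called in 5 of them. With 1 array left out it was between 0.32 and 0.38 and was called in 3 of 9 cases, those that left out control replicate 1, 2 or 3. Without the arrays of high adipose transcripts it was 0.35 (adjusted p = 0.192). The array of high adipose transcripts at 500 mg/kg had a Yars2 signal of 8.00, like the other 3 of its group. Without control replicate 2, the kidney with liver transcripts, the difference was 0.38 (adjusted p = 0.0363). Of 7 macrophage and lymphocyte genes tested in the kidney 0 lay above 0 at 500 mg/kg, with a median of -0.14, 0 called and 2 with an unadjusted p under 0.05. Their part in the Yars2 value was not tested.

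The other kidney synthetases were not called at 500 mg/kg, and 3 of 30 in all had an unadjusted p under 0.05, against 9.58% of all genes. At that dose 12 of 18 cytosolic members were above 0, with a median of 0.042, and 10 of 12 mitochondrial members, with a median of 0.065, against 55.9% of all genes and a median of 0.016. Farsa gave 6.90, 6.72, 6.67, 6.72 and 6.84 in controls and 6.81, 6.96, 7.09 and 6.81 at 500 mg/kg, a difference of 0.15 (adjusted p = 0.45) with overlap. Farsb, the other subunit of that enzyme, differed by 0.082 (adjusted p = 0.55). Kars1, the lysine enzyme, differed by 0.14 (adjusted p = 0.57), Vars1, the valine enzyme, by 0.21 (adjusted p = 0.638) and Lars1, the leucine enzyme, by -0.096 (adjusted p = 0.657). Among mitochondrial members Rars2 differed by 0.13 (adjusted p = 0.494) and Tars2 by 0.088 (adjusted p = 0.689). At 300 mg/kg, where 0 of 30 members and 3 of 11204 genes (0.0268%) were called and 0 members had an unadjusted p under 0.05 (5.74% of all genes), Vars1 differed by 0.24 (adjusted p = 0.841) and Farsb by 0.063 (adjusted p = 0.887). Probe sets of a gene did not always go together in the kidney. The second Vars1 set differed by -0.16 at 300 mg/kg and by 0.037 at 500 mg/kg. For Mars1 the second set differed by -0.31 at 300 mg/kg, beside 0.024 for the brightest. In the trend the smallest p values of cytosolic members belonged to Farsb (0.013 per step, adjusted p = 0.384), Kars1 (0.021, adjusted p = 0.49), Aars1 (-0.022, adjusted p = 0.496), Vars1 (0.033, adjusted p = 0.549) and Gars1 (0.013, adjusted p = 0.579). After Yars2, those of mitochondrial members belonged to Rars2 (0.016, adjusted p = 0.565) and Cars2 (0.012, adjusted p = 0.714). At the 4 lower doses 0 members and 0 genes overall were called (0.0%). Unadjusted p values under 0.05 were found for 0, 1, 2 and 0 members at 0.1, 1, 10 and 100 mg/kg, against 8.14%, 9.33%, 6.27% and 4.81% of all genes.

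Whether the organs responded differently was tested as the liver effect minus the kidney effect. For 500 mg/kg 0 of 30 members passed, against 13 of 10673 genes (0.122%), and 6 had an unadjusted p under 0.05, against 8.54% of all genes. Yars1 was higher in the liver's response by 0.41 (SE 0.17, adjusted p = 0.454) and Sars1 by 0.30 (SE 0.13, adjusted p = 0.483). Yars2 pointed the other way, at -0.30 (SE 0.13, adjusted p = 0.483). The organs' responses of Yars2 are therefore not shown to differ. The labels do not tie a liver to a kidney of the same rat, so this fit treats all 58 arrays as independent. At 300 mg/kg 0 members and 0 genes were called in this comparison (0.0%), while 5 of 30 members and 587 of 10673 genes (5.5%) had an unadjusted p under 0.05.

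**Figure D5:**
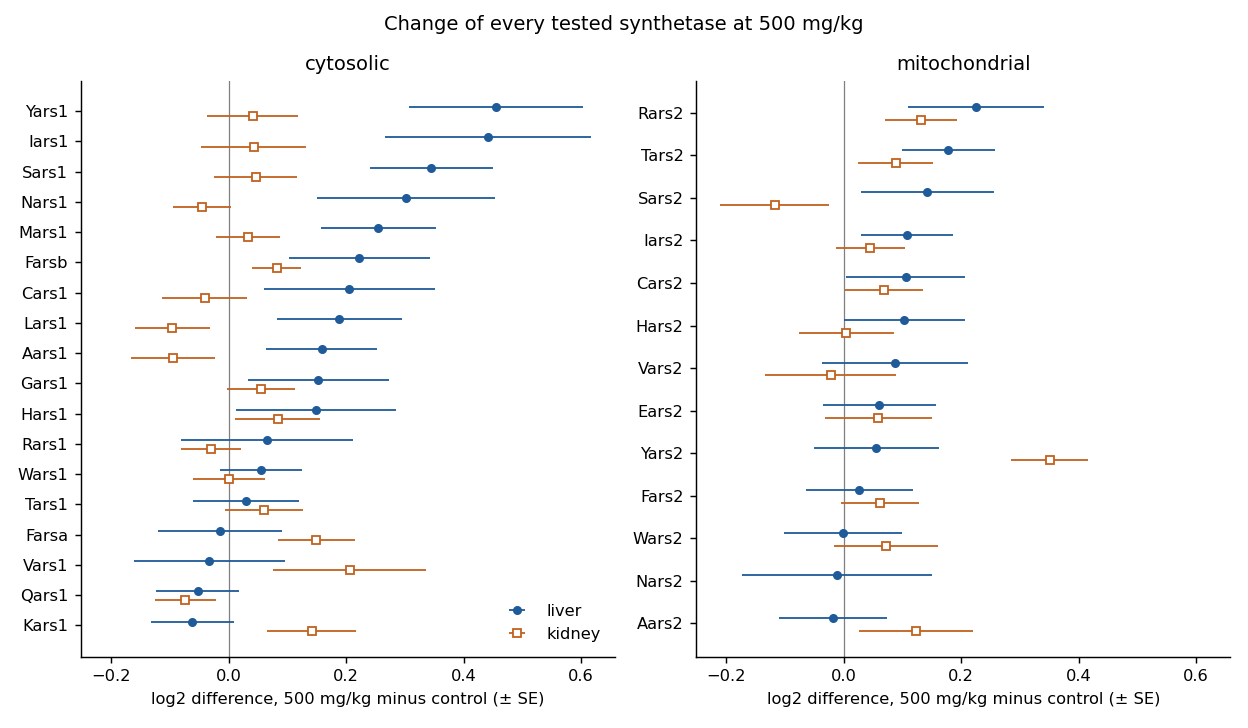
Log2 difference between 500 mg/kg and control, with the standard error of the fit as bars, for each cytosolic (left) and mitochondrial (right) synthetase in liver (filled circles) and kidney (open squares), ordered by the liver value. The largest liver values are Yars1 at 0.45 and Iars1 at 0.44, and the largest kidney value is Yars2 at 0.35. For Hars2 and Wars2 the liver and kidney points come from different probe sets.

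In control rats most synthetases were higher in the liver than in the kidney. Of 30 members 20 were higher there, 3 lower and 7 not called, and in all 8122 of 10673 genes were called between the organs (76.1%), 34.8% higher in liver and 41.3% lower. Unadjusted p values under 0.05 were found for the same number of members, 23, and for 77.6% of all genes. Groups did not overlap for 15 members higher in liver, against 28% of all genes, and for 3 lower, against 35.4%. The median difference was 0.31 for cytosolic and 0.23 for mitochondrial members, against -0.040 for all genes. Tars1, the threonine enzyme, gave 10.41, 10.32, 10.62, 10.51 and 10.52 in control livers and 8.92, 8.55, 8.58, 8.76 and 8.66 in control kidneys. The groups were far apart, and the difference of 1.78 (SE 0.076, adjusted p = 5.55e-27) is 3.43-fold. Cars1 was 2.87-fold higher in liver (1.52, SE 0.11, adjusted p = 1.57e-17), Mars1 2.17-fold (1.12, SE 0.075, adjusted p = 6.39e-19) and Yars1 1.82-fold (0.86, SE 0.12, adjusted p = 3.38e-09).

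The 3 members called lower in the liver were Wars1, Qars1 and Rars2, for tryptophan, glutamine and mitochondrial arginine. Wars2 was not called by its brightest probe set. Its second set was lower in liver without overlap, at 5.59 to 5.90 in control livers and 6.01 to 6.37 in control kidneys. Wars1 gave 7.98, 7.95, 7.98, 7.93 and 7.90 in control kidneys and between 7.03 and 7.18 in control livers, a difference of -0.83 (SE 0.060, adjusted p = 1.17e-17). Qars1 differed by -0.56 (SE 0.057, adjusted p = 1.35e-12) and Rars2 by -0.56 (SE 0.088, adjusted p = 1.63e-07). Rars1, the cytosolic arginine enzyme, came next at -0.18 and was not called (adjusted p = 0.118). Yars2, which rose in the kidney at 500 mg/kg, was 0.52 higher in untreated liver than in untreated kidney (adjusted p = 3.31e-07). The other calls, all higher in liver, were Lars1 (0.60), Gars1 (0.57), Vars1 (0.57), Nars1 (0.56), Iars1 (0.31), Kars1 (0.30), Hars1 (0.26) and Farsa (0.23) of the cytosol, and Cars2 (0.77), Ears2 (0.60), Sars2 (0.40), Aars2 (0.32), Hars2 (0.27), Tars2 (0.19) and Iars2 (0.16) of the mitochondrion. These values come from the brightest probe set of each gene. A second Hars1 set gave 5.69, 7.04, 5.81, 5.94 and 5.88 in control livers and 6.37 to 6.81 in control kidneys. That of Gars1 gave 5.61, 6.71, 5.89, 5.72 and 5.92, against 6.11 to 6.44. Second sets of Lars1, Vars1 and Tars2 overlapped between the organs. Further sets of Cars1, Mars1, Hars2 and Wars1 leaned the way of the brightest. The cytosolic genes with TGATGCAA in the window had a median difference of 0.86 and those without it 0.23. The sources used here do not give whether the organs were normalized together, which bears on these levels. Without control kidney replicate 2, the array with liver transcripts, 21 of 30 members were called.

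Other genes of the same pathways show what moved beside the synthetases in the liver. Of 32 tested genes in a list of ATF4 and its targets outside the synthetases, 28 had a slope above 0, against 51.2% of all genes, and 1 was called, against 1.84% of all genes. Eif4ebp1, which encodes a repressor of cap-dependent translation, rose by 0.073 per step of dose (adjusted p = 0.0177). The list's median at 500 mg/kg was 0.21, with 28 of 32 above 0 and 0 called. The smallest p values there were those of Trib3, a pseudokinase that feeds back on ATF4, at 1.66 (adjusted p = 0.0804), Mthfd2, a mitochondrial folate enzyme, at 0.81 (adjusted p = 0.0989) and Gpt2, an alanine aminotransferase, at 0.53 (adjusted p = 0.103). The top dose did not stand apart in this list. Its liver median was 0.071, 0.014, 0.17, 0.17 and 0.29 at 0.1, 1, 10, 100 and 300 mg/kg. The largest difference of a listed gene was 1.68, 0.82, 1.33, 1.91 and 1.33 at those doses. In the kidney at 500 mg/kg 16 of 31 genes of the list were above 0, with a median of 0.040. None of the 4 eIF2 kinase genes was called in the liver at 500 mg/kg. Eif2ak3, the endoplasmic reticulum kinase, stood at -0.38 (adjusted p = 0.212), Eif2ak2 at 0.15 and Eif2ak4 at 0.066. The arrays measure RNA, not phosphorylation.

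No partner of the synthetases was called in the liver at 500 mg/kg. Of 6 tested genes in a list built around scaffolds of the multisynthetase complex and synthetases outside the naming pattern, 6 lay above 0, with a median of 0.15. Aimp2, a scaffold protein, stood at 0.21 (adjusted p = 0.445), Tars3 at 0.18 and Aarsd1 at 0.11. Of 16 elongation and initiation factors 9 lay above 0, with a median of 0.015. Eef2, the translocase, stood at -0.19 (adjusted p = 0.0916), Eef1b2 at -0.18 and Eef1g at -0.10. Of 16 tested genes in a list of transfer RNA charging partners and editing factors 11 lay above 0, with a median of 0.024. Gatc, a subunit of the mitochondrial transfer RNA amidotransferase, stood at 0.21 (adjusted p = 0.219), Sephs2 at 0.25 and Qrsl1 at 0.17. Of 11 mitochondrial translation factors 8 lay above 0, with a median of 0.068, and Tsfm, an elongation factor, stood at 0.18 (adjusted p = 0.229), Mtif2 at 0.21 and Gfm2 at -0.14. In the kidney at 500 mg/kg 10 of these 11 lay above 0, with a median of 0.095 and 0 called.

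Some markers of immune cells fell in the liver. Of 9 macrophage and lymphocyte genes, 2 fell in the trend, Adgre1 with a slope of -0.070 (adjusted p = 0.0159) and Csf1r with one of -0.043 (adjusted p = 0.0262), against 1.17% of all genes called lower. Of the 9 slopes 1 was above 0, and 7 had an unadjusted p under 0.05. Cd74, the invariant chain of class II molecules, fell by 0.59 at 500 mg/kg (adjusted p = 0.0374), where 0.47% of all genes were called lower. Their mean per array ran from 7.42 to 7.66 in controls, from 7.27 to 7.45 at 300 mg/kg and from 7.12 to 7.53 at 500 mg/kg, and all 9 passed the filter on dim probe sets. Of 6 endothelial and stromal genes 1 lay above 0 at that dose, with a median of -0.17 and 0 called. Of 7 liver markers Tat, a tyrosine aminotransferase, rose by 1.39 (adjusted p = 0.0191), where 0.488% of all genes were called higher, and Apoa1, an apolipoprotein, fell by 0.30 (adjusted p = 0.0245). The part of these lists in the synthetase values was not tested. Wars1 is also a known interferon gamma target. Of 10 tested interferon gamma targets 1 was called in the trend, Cxcl9, with a slope of -0.12 (adjusted p = 0.0382), while Wars1 had a slope of 0.011 (adjusted p = 0.653) and differed by 0.054 at 500 mg/kg (adjusted p = 0.794).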

How the data were processed

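The deposited values are log2 signals, summarised by RMA per the submitters' processing notes, which give no version. All 58 sample columns matched sample titles, and 0 were left unmapped. Names come from the array's annotation, in which 20826 probe sets had 1 symbol, 436 several and 9780 none. Within each organ, probe sets above percentile 40 of the same array on 4 or more arrays entered the fits, and a gene's brightest such set stood for it. That kept 43 of 46 synthetase probe sets in the liver and 42 in the kidney. For Hars2 and Wars2 the brightest set differed between liver and kidney. Each dose was tested against control in limma 3.58.1 (R 4.3.3), with 1 fit per organ over 29 arrays and an intensity trend. Dose trends used the dose rank, and organ differences a single fit over 14 groups. Adjusted p values are Benjamini-Hochberg over all genes of a comparison, called under 0.05, two-sided. Group values carry the standard error of the fit.

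Members and lists were chosen with earlier results of these data known. The text names members that were called, the 5 cytosolic and 3 mitochondrial members of lowest p in the trend and at 500 mg/kg, the 2 of lowest p at 300 mg/kg, Yars2, the 4 largest organ differences each way, and from other lists called genes or the 3 of lowest p. Other members are named by position (a range's end, a motif, a correlation), after their values were seen. The labels call arrays of a group biological replicates and give no batch. Replicate numbers were checked for pairing. Only 13 of 84 same-numbered pairs in the liver and 25 of 84 in the kidney correlated over 0.1, so they were not taken as pairs. No 2 arrays held identical values, with a highest correlation of 0.994 in the liver and 0.996 in the kidney. Alternatives changed the filter, the probe set standing for a gene, the normalization, the weights, the intensity trend, the arrays in the fit, the block and the dose scale. The sequence of 1 promoter site is not reported here. Arrays have no read depth, and their number limits the precision.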

Additional observations from a re-analysis of the deposited data

Results flagged for a closer look

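Of 49 groups examined, 8 held a sample far from the others by Dixon's criterion, which chance meets in about 1 in 20 groups. In the liver, Yars1 at 0.1 mg/kg had its far sample at 9.86 (replicate 4), and the mean over cytosolic synthetases in that group was 0.34 in the same array. At 500 mg/kg the cytosolic mean was -0.10 in replicate 2, against 0.23, 0.24 and 0.27 in the other 3 livers. In the kidney, Yars2 had a far sample at 7.90 (1 mg/kg) and at 8.02 (500 mg/kg), the latter in a group whose 4 values differ by 0.02 in all. The kidney cytosolic means had far samples at -0.09 in the control, at -0.06 at 1 mg/kg and at 0.10 at 10 mg/kg. The control array concerned, replicate 2, is also the kidney in which liver transcripts averaged 7.47. Its part in the value was not tested.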

How the results depend on the processing

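Over 17 comparisons and 174 other settings, counts of called members stayed within 1.5 times the main count in 163 and moved in 11. The main count was 0 in most comparisons, so most of the 163 are counts of 0 that stayed 0. Leave-one-out settings are counted apart from the 174. A reversed direction was looked for only in named members called in the main fit, and none was found. In the liver at 500 mg/kg, array quality weights gave 2 members called (Sars1 and Yars1) in place of 0. For the liver trend, 0 were called in place of 2 with the replicate number as a block (replicate block) and over dosed arrays only. For the kidney at 500 mg/kg, 0 were called in place of 1 without the filter, over all probe sets, with cyclic loess, with the replicate block, with only the compared groups in the fit, and without the 2 arrays of high adipose transcripts. For the kidney trend, dose as a linear term in mg/kg gave 1 (Yars2, higher), and dosed arrays only gave 1 (Aars1, lower), in place of 0. The block moved no other count by over 1.5 times. With each array left out in turn, counts ran from 0 to 2 for the liver at 500 mg/kg, from 0 to 3 for the liver trend, from 0 to 1 for the kidney at 500 mg/kg and from 21 to 23 for the untreated organs, and were 0 for the rest. The arrays whose omission ended the Yars2 call were control replicates 4 and 5 and each of the 4 at 500 mg/kg. Those that ended 1 of the 2 liver trend calls were control replicate 4 and replicates 1 and 4 at 300 mg/kg. The cause of these moves was not tested.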
